A study of Arabidopsis thaliana with 4 samples.

Results

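The cells described here were root protoplasts, cells freed from their walls by enzyme digestion, whose transcripts placed them in a heat shock state. They were chosen from the counts themselves: a barcode with at least 2000 transcript molecules (UMIs, unique molecular identifiers) and at most 10% of them from mitochondrial and chloroplast genes was a member when at least 2 of the 3 genes MBF1C (AT3G24500), HSP17.6A (AT5G12030) and HSP101 (AT1G74310) had a UMI and their summed level reached 300 CPM, meaning UMIs per 1000000 UMIs of the barcode. There were 1731 members among 24258 barcodes kept by the depth and organelle limits, of 41823 barcodes in all. The samples were root tips of Arabidopsis thaliana seedlings aged 4 to 5 days, all diploid transgenic reporter lines, with no heat treatment named in the labels. Each of 4 lines gave 1 droplet 3' library in a batch of its own: pWER:GFP, pCORTEX:GFP and pSCR:GFP, in which a promoter drives GFP, and the enhancer trap PET111, whose table has a YFP row. Where 4 values follow each other without names, they stand for the libraries as the tables were batched: pWER:GFP, pCORTEX:GFP, the PET111 library, then pSCR:GFP. With 1 library per line, the line and its batch cannot be told apart, and no test between lines was made.

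Heat shock proteins are molecular chaperones that bind unfolded proteins. Small heat shock proteins hold them in a soluble form, HSP70 and HSP90 machines refold them, and HSP101, a ring-shaped disaggregase, pulls them out of aggregates. In plants, heat shock factors of the HSFA1 group start the transcription of these genes, HSFA2 sustains it, and the factors bind inverted repeats of the letters GAA and TTC in promoters. MBF1C is a transcriptional coactivator that accumulates on heat, and HSP17.6A is a cytosolic class II small heat shock protein.

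The gate genes had the following levels, which chose the members and are given without a test. MBF1C stood at 766, 960, 1005 and 682 CPM in the summed members, against 20.4, 19.4, 4.65 and 24.2 in the other kept barcodes. HSP17.6A stood at 487, 602, 602 and 469 CPM in members, against 2.59, 5.40, 0.463 and 4.42. HSP101 stood at 234, 291, 493 and 297 CPM in members, against 3.59, 4.11, 2.22 and 4.83. The members were thus high in all 3 genes in every library, although a barcode needed only 2 of them: between 45.5% (pSCR:GFP) and 54.9% (pCORTEX:GFP) of members held all 3. The median member had a gate level of 811, 1548, 1576 and 765 CPM. The highest single barcode reached 20202 CPM, in pSCR:GFP.

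Just inside the gate, at 300 to 350 CPM, lay 30, 35, 6 and 23 members. Just outside it, 35, 40, 3 and 24 barcodes had 2 gate genes and a level of 250 to 300 CPM. A further 356, 252, 63 and 379 barcodes passed 300 CPM on a single gate gene and were not members. No gate UMI at all was found in 63.5%, 59.3%, 78.0% and 66.7% of kept barcodes. A member could rest on as few as 2 gate UMIs, as 58, 16, 5 and 45 did; the median member held 14 to 19.

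The promoters of 1 gate gene and of 2 heat genes outside the gate are shown as examples, not as typical of the heat genes. Each sequence is the 300 bases from 250 before to 50 after the annotated gene start, from RefSeq TAIR10.1, read 5' to 3' on the gene's strand. The build behind the deposited counts is not given in the sources used here, so the positions are those of the RefSeq assembly. Capitals mark the letters GAANNTTC or TTCNNGAA, the core of a heat shock element, where overlapping matches form a longer run of 3 half-sites. All 3 genes lie on the minus strand: HSP17.6A at chr5:3884789-3885088, HSP17.4 at chr3:16984818-16985117 and HSP70 (AT3G12580) at chr3:3993837-3994136.
HSP17.6A: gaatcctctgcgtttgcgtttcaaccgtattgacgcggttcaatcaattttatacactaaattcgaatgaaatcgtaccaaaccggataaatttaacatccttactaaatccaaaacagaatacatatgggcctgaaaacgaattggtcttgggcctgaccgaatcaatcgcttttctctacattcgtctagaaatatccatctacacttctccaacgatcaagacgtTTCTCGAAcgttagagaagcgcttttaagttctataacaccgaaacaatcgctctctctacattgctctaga
HSP17.4: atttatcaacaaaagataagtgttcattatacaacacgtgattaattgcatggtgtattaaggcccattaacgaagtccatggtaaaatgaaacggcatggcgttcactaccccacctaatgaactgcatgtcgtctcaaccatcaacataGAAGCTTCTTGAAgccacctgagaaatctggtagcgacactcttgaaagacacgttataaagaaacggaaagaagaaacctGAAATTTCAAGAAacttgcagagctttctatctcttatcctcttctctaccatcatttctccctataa
HSP70: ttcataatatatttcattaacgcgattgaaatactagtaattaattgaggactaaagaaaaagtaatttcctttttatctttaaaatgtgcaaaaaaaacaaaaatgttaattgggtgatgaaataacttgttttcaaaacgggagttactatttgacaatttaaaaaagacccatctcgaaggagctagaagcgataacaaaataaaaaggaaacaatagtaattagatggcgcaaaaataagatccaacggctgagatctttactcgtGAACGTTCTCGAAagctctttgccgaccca

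HSP17.6A held 1 match, HSP70 held a run of 3 half-sites, and HSP17.4 held 2 such runs. The run of HSP70 lies after the annotated gene start, not before it. Matches after the start also enter the counts below, as in HSP21 and Hop3. The window of MBF1C held no match. The gene's strand was searched. The other strand gives the same matches, since GAANNTTC and TTCNNGAA are each their own reverse complement. The forms of the run of 3 are the reverse complement of each other. TTCNNGAA was added to GAANNTTC after the first matches were seen. Of 27443 protein-coding genes with a window of this length, 19.3% held at least 1 match and 0.481% held a run of 3. Among the 81 heat list genes tested below, 20 of the 35 called higher in members held a match and 8 held a run of 3. HSP17.4 and HSP70, shown above, are among these 8, while called genes such as HSP17.6II, Hsp70b and HSP90.1 held no match. Of the 46 not called, 11 held a match and 3 a run of 3. A match was about as frequent in 1 list outside the heat genes: 6 of 11 immune genes (54.5%) held one, against 57.1% of the called heat genes, although no immune gene was called; none of the 11 held a run of 3. These are matches of letters in 1 window, not sites shown to be bound.

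In pWER:GFP, 5.25% of kept barcodes were members (334 of 6360; 95% Clopper-Pearson interval 4.72% to 5.83%). The share was 11.6% for pCORTEX:GFP (878 of 7552; 10.9% to 12.4%). It was 6.83% for PET111 (240 of 3516; 6.01% to 7.71%) and 4.08% for the library of pSCR:GFP (279 of 6830; 3.63% to 4.58%). The intervals cover counting error over barcodes only. pCORTEX:GFP had the highest share and pSCR:GFP the lowest. With every barcode thinned to 2000 UMIs the shares were 2.45%, 7.03%, 4.12% and 1.74%, and with the gate at 1000 CPM 2.01%, 7.71%, 4.86% and 1.45%, so the order of the 4 lines was the same in these counts. With barcodes down to 1000 UMIs admitted, pWER:GFP (4.30%) stood just above PET111 (4.19%).

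**Figure D1:**
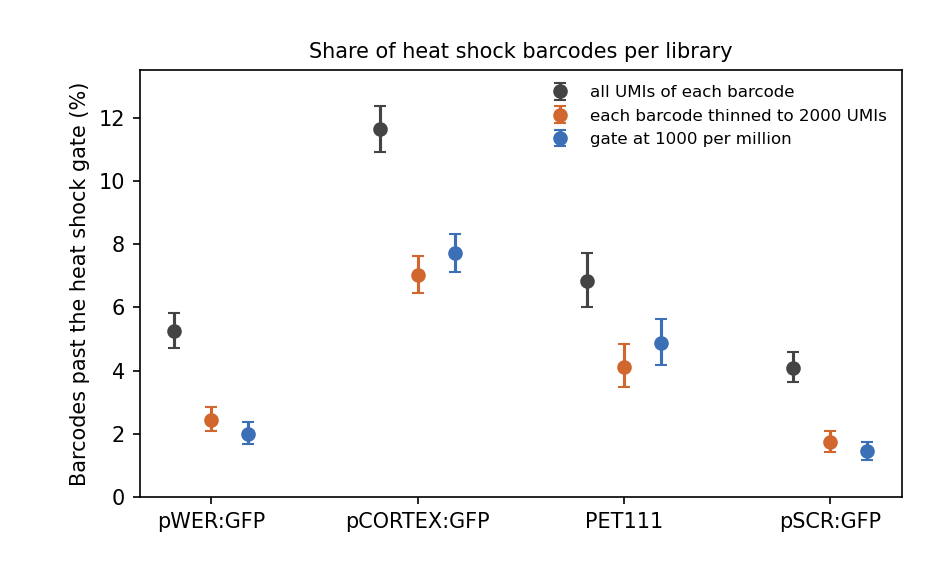
Percent of kept barcodes past the heat shock gate (y axis) in the 4 libraries (x axis), for all UMIs, for barcodes thinned to 2000 UMIs and for a gate of 1000 CPM. Points are the share of 1 library each and bars the 95% Clopper-Pearson interval; pCORTEX:GFP lies highest, at 11.6%, 7.03% and 7.71%.

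Depth moved with membership, in opposite ways in different libraries. The median member held 18213 UMIs in pWER:GFP and 16050 in pSCR:GFP, against 10563 and 9326 in the other barcodes. In pCORTEX:GFP and PET111 it held 10880 and 10781 UMIs, against 15516.5 and 16618. Members were most frequent at 20000 to 50000 UMIs in pWER:GFP, with 9.62% of that range, and reached 7.73% there and 7.74% above it in pSCR:GFP. They peaked between 5000 and 20000 UMIs in the other two, with 19.8% of both ranges up to 20000 in pCORTEX:GFP and 11.7% and 14.8% in PET111. Of 792 PET111 barcodes with at least 50000 UMIs, 3 were members. Thinned to 2000 UMIs, the median number of genes detected per barcode was 1057.5, 1101, 1063 and 1046 in members, against 1155, 1083, 1057 and 1154 in the other barcodes.

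The first question beyond the gate was whether other heat shock transcripts accompanied it in the same barcodes. A list of 17 other small heat shock protein genes gave a UMI in 85.6%, 97.8%, 92.5% and 86.4% of members. In the other barcodes the shares were 49.0%, 48.1%, 37.5% and 44.4%. The median member carried these 17 genes at 812, 2156, 1486 and 898 CPM in the same order, and the median of the other barcodes was 0 in each library. The share with a UMI and a median of 0 depend on depth. Median depth was higher in members than in others in pWER:GFP and pSCR:GFP, and lower in pCORTEX:GFP and PET111. Seen from the other side, of barcodes with at least 1000 CPM of these transcripts, 147 of 202, 602 of 722, 146 of 163 and 133 of 200 were members. Within members the gate level and the level of the 17 genes had Spearman coefficients of 0.62, 0.70, 0.66 and 0.61 over 334, 878, 240 and 279 barcodes; the points share a library, and both levels are divided by the same depth. HSP17.6II (AT5G12020) is a class II relative of the gate gene HSP17.6A, and how reads shared by such relatives were assigned is not given in the sources used here.

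**Figure D2:**
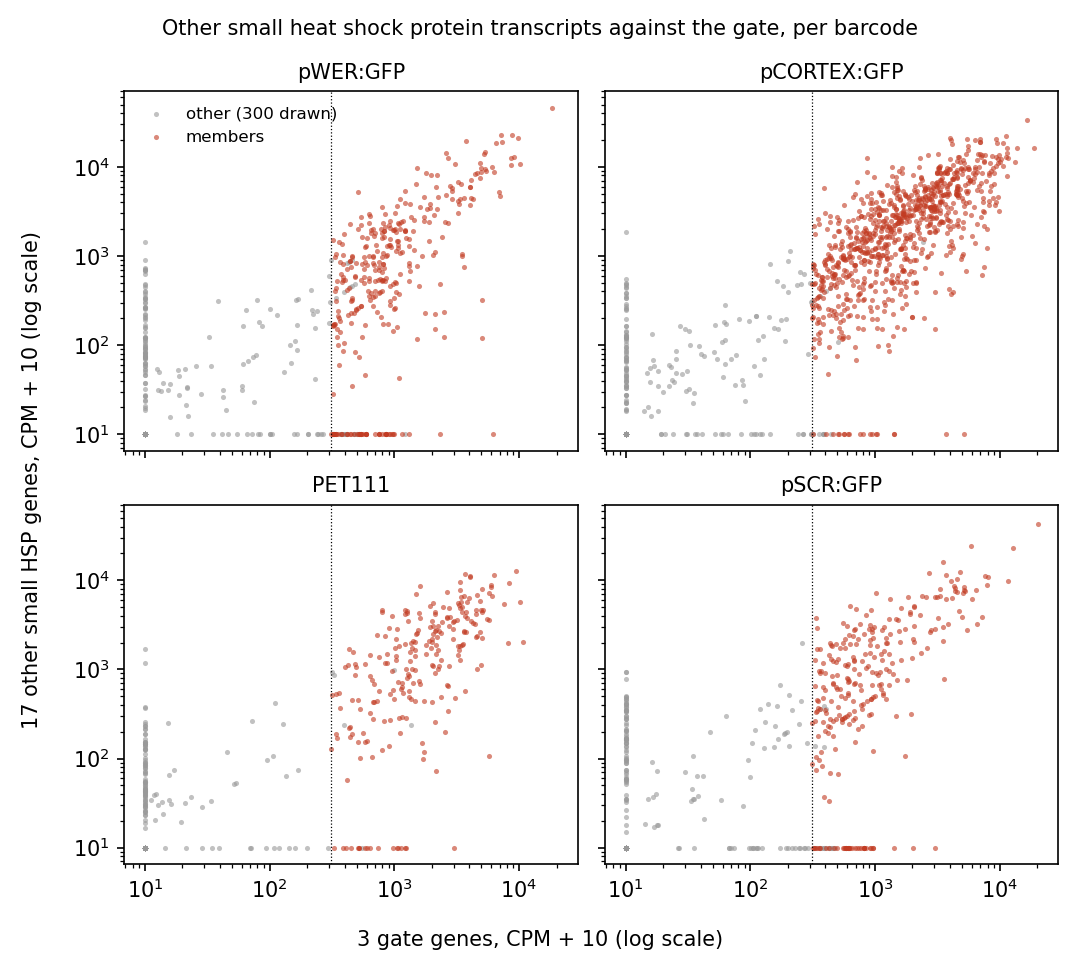
Each point is a barcode, with the summed level of the 3 gate genes on the x axis and of 17 other small heat shock protein genes on the y axis (CPM plus 10, log scales), in 1 panel per library. All members are red, 300 other kept barcodes drawn at random per library are grey and the dotted line is the gate; the red clouds rise to the right, with Spearman coefficients of 0.61 to 0.70.

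For the genes outside the gate, UMIs were summed over members and over other barcodes in each library and compared with edgeR's quasi-likelihood test, with the library as a block and adjustment over all 20689 genes tested. Across all of them, 597 genes were called higher in members, 2.89% of those tested, and 101 lower, 0.488%. The median log2 fold change of all genes was 0.02. Of 84 heat list genes, 81 passed the filter on low counts, and 35 of these were called higher and none lower, the lowest at a log2 fold change of 1.62 and the highest at 8.02. All 35 were higher in each of the 4 libraries, as the plot of their ratios shows. The calls rest on 4 libraries: without pWER:GFP or without pCORTEX:GFP 0 of the 35 were called (0% of all genes, with 5012 and 4006 genes at an unadjusted p below 0.05), without pSCR:GFP 7 (0.0341% of all genes were called higher in that fit) and without PET111 29 (0.46%). All 35 kept a positive fold change in each of these fits, the lowest being 1.40. The lists were not independent of earlier results of these data.

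Of the 17 small heat shock protein genes, 15 were called higher, against the 2.89% of all genes, and the median of the list was 6.04. The cytosolic class I genes were all among them. HSP17.4 (AT3G46230) stood at 161, 430, 330 and 170 CPM in members, and at 1.39, 5.46, 1.00 and 3.17 in the other barcodes. The members of every library lay above the other barcodes of all libraries, and the fitted log2 fold change was 6.85 ± 0.58 (adjusted p = 0.0129). Each ± value is the SE implied by the test over 4 libraries, the fold change divided by the square root of its F statistic. The spread in that statistic is moderated across genes. AT1G07400, another class I gene, stood at 533, 394, 294 and 568 CPM against 6.81, 6.30, 1.14 and 12.0. HSP18.2 (AT5G59720) had a smaller fold change, 4.47 ± 0.40, with 23.8, 48.0, 30.4 and 54.1 CPM in members. HSP17.6II reached 308, 264, 156 and 285 CPM against 4.01, 1.92, 0.349 and 6.33.

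The small heat shock proteins of the organelles were higher as well. ATHSP22.0 (AT4G10250), which resides in the endoplasmic reticulum, stood at 125, 54.7, 8.19 and 75.3 CPM against 0.252, 0.437, 0.0134 and 0.405, the highest fold change of the heat lists at 8.02 ± 0.54 (adjusted p = 0.0106). The PET111 value of the other barcodes is 2 UMIs. HSP23.6-MITO (AT4G25200), of mitochondria, stood at 74.8, 145, 34.7 and 12.4 CPM against 0.310, 1.64, 0.121 and 0.259. HSP21 (AT4G27670), of plastids, was called at 7.34 ± 1.02 (adjusted p = 0.0344) from few molecules: 124, 203, 10 and 11 UMIs in members against 3, 16, 1 and 12 in far deeper sums of other barcodes. AT5G37670, the peroxisomal HSP15.7, stood at 13.2, 27.1, 13.1 and 5.76 CPM against 0.331, 0.544, 0.309 and 0.440. The 2 members of the list that were not called were AT5G54660 (1.72 ± 1.06, adjusted p = 0.311) and AT4G21870 (0.07 ± 0.26, adjusted p = 0.879). AT5G54660 stood at 28.6 and 36.4 CPM in members of pWER:GFP and pSCR:GFP, but at 0.474 in those of pCORTEX:GFP, below the 2.54 of the other barcodes there.

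Among 14 HSP70 genes, 13 were tested and 5 called higher, against 2.89% of all genes. The cytosolic inducible genes led: HSP70 (AT3G12580) stood at 181, 158, 260 and 252 CPM in members against 8.59, 3.10, 1.61 and 15.5 (log2 fold change 5.37 ± 0.69, adjusted p = 0.0282), and Hsp70b (AT1G16030) at 170, 116, 124 and 226 against 3.18, 1.93, 0.880 and 4.44. HSP70T-2 was higher by 4.88 ± 0.23 and Hsp70-15, of the HSP110-like branch that exchanges nucleotides on HSP70, by 1.62 ± 0.15. AT3G09440, a cytosolic HSP70 that is also transcribed without heat, stood at 620, 129, 195 and 798 CPM against 137, 67.1, 76.6 and 200. HSC70-1 (AT5G02500), the constitutive cytosolic HSP70, was not called. It stood at 295, 317, 300 and 319 CPM in members and at 507, 514, 695 and 421 in the other barcodes, lower in members of each library (-0.70 ± 0.21, adjusted p = 0.093). Cytosolic HSP70 genes are close copies of each other, so the split of counts between them is uncertain. The plastid gene cpHsc70-1 had -0.19 ± 0.29 and the mitochondrial gene mtHsc70-1 -0.90 ± 0.42, neither called.

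In the HSP90 and HSP100 list, 3 of 8 genes were called higher, against 2.89% of all genes. HSP90.1 (AT5G52640), the heat-inducible cytosolic HSP90, had nearly the same ratio in every library, at 84.4, 81.4, 93.3 and 90.1 CPM in members against 3.69, 3.36, 3.29 and 3.53 in the others (4.72 ± 0.18, adjusted p = 0.00479). CLPB3 and CLPB4, the plastid and mitochondrial counterparts of the disaggregase HSP101, were higher by 3.28 ± 0.32 and 2.21 ± 0.25. The near-identical cytosolic genes HSP81-2 (0.39 ± 0.24, adjusted p = 0.317), HSP81-3 (-0.09 ± 0.27, adjusted p = 0.853) and Hsp81.4 (-0.78 ± 0.28, adjusted p = 0.127) were not called, with the split of counts between them uncertain. The median of the list was 0.15, close to the 0.02 of all genes. Against the matched barcodes described below it was 0.78, and 4 of the 8 genes were called higher, against 0.659% of all genes.

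Of 21 heat shock factor genes, 19 were tested and 5 called higher, against 2.89% of all genes. HSFA2 stood at 121, 135, 98.6 and 78.6 CPM in members against 5.95, 2.50, 0.672 and 7.88 (5.18 ± 0.76, adjusted p = 0.0366). AT-HSFA7B was lower in level, at 5.79, 4.98, 0.982 and 4.51 CPM against 0.363, 0.221, 0.175 and 0.447. The other called factors were the class B genes HSF4 (AT4G36990, also called HSFB1; 3.16 ± 0.25), HSFB2A (2.74 ± 0.16) and AT-HSFB2B (2.47 ± 0.15), known as repressors of heat shock transcription. HSFA7A stood at 260, 319, 481 and 241 CPM against 50.9, 19.3, 23.3 and 94.7, higher in each library, and did not pass the test (3.11 ± 0.60, adjusted p = 0.0575). None of the HSFA1 genes was called: HSF1 (HSFA1A) had 0.88 ± 0.21, HSF3 (HSFA1B) 0.47 ± 0.35, HSFA1D 0.29 ± 0.18 and HSFA1E 1.41 ± 0.64, with adjusted p from 0.0721 to 0.39.

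Of 24 co-chaperones and heat effectors, 7 were called higher, against 2.89% of all genes. BAG6, a calmodulin-binding co-chaperone, stood at 137, 153, 154 and 114 CPM against 3.36, 3.93, 3.21 and 4.12 (5.32 ± 0.23, adjusted p = 0.00618). AT5G48570, the immunophilin ROF2 that associates with HSP90, stood at 109, 113, 84.8 and 127 against 8.75, 9.64, 6.78 and 8.86. Hop3, which links HSP70 to HSP90, was higher by 4.13 ± 0.28, the J-domain gene AT2G20560 by 5.06 ± 0.29, HSA32, needed for lasting acclimation to heat, by 3.31 ± 0.26 and Fes1A, an HSP70 co-chaperone, by 3.09 ± 0.24. GolS1, a galactinol synthase, had 82.0, 17.2, 12.8 and 63.2 CPM in members against 2.31, 0.178, 0.0403 and 1.76 (6.13 ± 0.61, adjusted p = 0.0183), the PET111 value of the others being 6 UMIs. MBF1A and MBF1B, the relatives of the gate gene MBF1C, had 0.10 ± 0.15 and 0.08 ± 0.16 and were not called. DREB2A, a drought and heat transcription factor, stood at 909, 371, 635 and 1145 CPM in members against 484, 17.6, 16.9 and 585 and was not called (2.92 ± 1.00, adjusted p = 0.119).

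Because members were unevenly spread over cell classes and depths, the same test was run against up to 5 other barcodes per member from the same cluster, within 2-fold in depth. Clusters were built without the heat lists, the gate genes and the reporters. All other genes, cell class markers among them, could enter the clustering. Matching can thus by itself shrink the fold changes of such genes, in a way that does not apply directly to the heat lists. This left 325, 766, 231 and 274 members with 1460, 1790, 545 and 1284 matched barcodes. Depth was not made equal. The median was 16853, 11044, 10715 and 15589.5 UMIs in these members, against 12121.5, 15575.5, 9928 and 14932.5 in the matched barcodes. The matched test called 118 genes higher, 0.659% of 17898 tested, and 16 lower, 0.0894%. All 35 heat list genes were called again, with fold changes of 1.30 to 7.70, and MTHSC70-2 (1.43 ± 0.11), HSP81-2 (1.05 ± 0.15) and ROF1 (1.34 ± 0.12) passed in addition. HSC70-1 had -0.03 ± 0.12 there. Of the 698 genes called against all other barcodes, 96 were called in the matched comparison, and none of those in the opposite direction.

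Beyond the heat lists, 426 called genes changed the same way in every library and reached 20 CPM in the mean of members or of others. The 20 highest included further folding genes. AT1G71000, a J-domain gene, had 202, 5.16, 2.95 and 249 CPM against 6.70, 0.0640, 0 and 14.7 (5.51 ± 0.79, adjusted p = 0.0358), with no UMI in the other barcodes of PET111. ATERDJ3A, a J-domain protein of the endoplasmic reticulum, was higher by 3.33 ± 0.45. PDX1.2, a non-catalytic member of the vitamin B6 synthase family, stood at 136, 216, 150 and 87.6 CPM against 19.8, 16.1, 11.7 and 12.4, and its matched fold change was 3.62 ± 0.17. AT1G14200 stood at 572, 892, 1016 and 637 CPM against 21.0, 21.6, 9.59 and 28.6 (5.38 ± 0.49, adjusted p = 0.0147). TIL, a temperature-induced lipocalin, was higher by 3.11 ± 0.28, ELIP1, an early light-induced protein of plastids, by 3.61 ± 0.43, and AT3G10020 by 3.30 ± 0.24. The stress-associated zinc finger genes PMZ and SAP10 were higher by 3.18 ± 0.33 and 3.10 ± 0.27, and PMZ stood at 1264 and 1129 CPM in members of pWER:GFP and pSCR:GFP but at 159 and 124 in those of pCORTEX:GFP and PET111. The others of the 20 were AT5G25450, AT4G27657, AT1G26800, AT1G22810, AT1G72416, AT1G03070, AT2G31730, AT1G03920, AT3G14200, HB-7 and AT2G37750, at 2.87 to 4.69. Against matched barcodes 13 of the 20 were called, and AT1G22810, AT1G72416, PMZ, SAP10, AT2G31730, AT1G03920 and HB-7 were not.

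The 10 lowest genes were AT4G22217, AT1G73620, GSTU28, SHV2, AT2G47540, ENODL15, AT3G02120, LAX3, AT3G61560 and ADF11, with fold changes from -3.13 to -2.14. SHV2, a root hair growth gene, stood at 1.75, 8.42, 2.29 and 3.38 CPM in members against 11.3, 49.1, 40.2 and 11.8 (-2.64 ± 0.37, adjusted p = 0.0351). LAX3, an auxin influx carrier, stood at 9.47, 14.6, 3.60 and 14.9 against 53.3, 42.4, 21.2 and 77.9, and GSTU28, a glutathione transferase, at 7.37, 11.0, 3.60 and 14.0 against 50.3, 77.5, 56.3 and 49.4. Of these 10, GSTU28 alone was called against matched barcodes (-1.59 ± 0.21, adjusted p = 0.0286).

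Most genes of a list of endoplasmic reticulum folding genes had negative fold changes, and 4 of 19 had positive ones. This was not a split by compartment alone. Cytosolic HSC70-1 also had a negative fold change, and ATHSP22.0, outside this list, was higher. Of the 19, 8 were called lower and 2 higher, against 0.488% and 2.89% of all genes, with a median of -0.96. BIP2, the HSP70 of the endoplasmic reticulum, was lower (-1.34 ± 0.20, adjusted p = 0.039). The calcium-binding chaperone CRT1a stood at 139, 163, 112 and 112 CPM in members against 315, 291, 259 and 224, and the disulfide isomerase PDIL1-1 at 107, 184, 99.9 and 89.0 against 286, 329, 347 and 225. The 2 higher genes were ATERDJ3A and TIN1 (3.83 ± 0.29). Without any 1 library none of these genes was called lower. Against matched barcodes none of the 19 was called lower (median -0.48), and ATERDJ3A and TIN1 were called higher again. All 15 ribosomal protein genes of a list had negative fold changes (median -1.28), none was called, and the matched median was -0.26. The summed level of this list was 8243, 9532, 3821 and 7416 CPM in members against 18383, 20252, 21382 and 12805.

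Among the other stress lists, OPR3, an enzyme of jasmonate synthesis, was the 1 of 13 wound and jasmonate genes called higher (0.93 ± 0.14, adjusted p = 0.0412). Of 10 cold and dehydration genes, 8 were tested and the dehydrins COR47 (1.91 ± 0.26) and ERD10 (2.25 ± 0.36) called higher. COR47 stood at 7449, 876, 553 and 9658 CPM in members against 1760, 290.0, 134 and 3140, so that pWER:GFP and pSCR:GFP exceeded the others in both sets. None of 9 tested immune genes and none of 11 oxidative and mitochondrial stress genes was called. With 2.89% of all genes called higher, counts this low in lists this short are no result about them. The medians were 1.35 for the immune list, 0.88 for the oxidative, 1.12 for the wound and 1.67 for the cold list, all above the 0.02 of all genes. The libraries differed: the summed immune genes had log2 ratios of -0.59, 2.89, 1.97 and 0.20, the wound genes 0.37, 2.48, 2.57 and 0.20, and the oxidative stress genes 0.56, 1.99, 2.14 and 0.41. These 3 lists were thus higher in members chiefly in pCORTEX:GFP and PET111. Against matched barcodes the summed immune genes had -0.34, 1.02, -1.52 and -0.02. In the matched comparison no gene of these 4 lists was called, and these genes too could enter the clustering.

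Members of the heat shock state were not of 1 cell class. Endodermis markers were higher in the summed members: 8 of 9 were called higher (median 2.29), against 2.89% of all genes. CASP1, a Casparian strip scaffold protein, stood at 1204, 6047, 3960 and 743 CPM against 221, 753, 786 and 349. Root cap markers had a median of 1.78 and none of 9 was called. In the matched comparison the medians were 0.14 and 0.49, and no gene of either list was called. These markers could enter the clustering behind the matching, so smaller values there can be built in. Matching did not make the classes equal in each library. The matched log2 ratios of the summed endodermis markers were 0.63, 0.75, -1.15 and 0.29. Those of the summed root cap markers were 0.32, 1.20, 0.44 and 0.31. Summed levels weight deep barcodes. By count, barcodes with at least 1000 CPM of the 9 endodermis markers and less of the root cap markers made up 15.9% and 17.9% of members in pWER:GFP and pSCR:GFP, and 7.06% and 5.42% in pCORTEX:GFP and PET111. In the other barcodes they made up 4.02%, 8.95%, 9.31% and 6.76% in the stated library order. By count they were thus more frequent among members in pWER:GFP and pSCR:GFP. In pCORTEX:GFP and PET111 the share of members was lower, but the intervals overlapped. They were 5.46% to 8.96% against 8.27% to 9.66% in pCORTEX:GFP, and 2.92% to 9.08% against 8.34% to 10.4% in PET111. Those with at least 1000 CPM of the 9 root cap markers alone made up 12.3% and 9.32% of members in pWER:GFP and pSCR:GFP, but 56.9% and 68.8% in pCORTEX:GFP and PET111. In the other barcodes the root cap share was 7.62% and 5.97%, and 9.47% and 12.9%. At most 0.569% of members passed both markers.

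**Figure D3:**
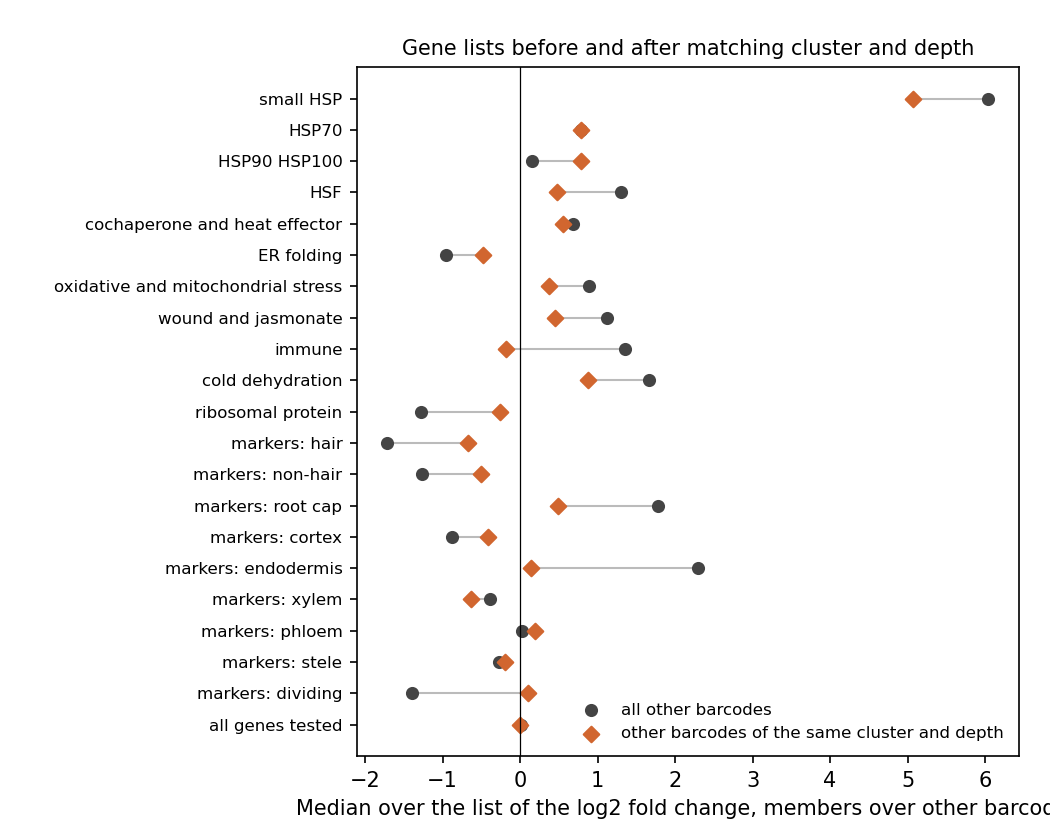
Median log2 fold change (x axis) of each gene list (y axis), members over all other barcodes (black circles) and over other barcodes of the same cluster and depth (orange diamonds), joined by a line. The small heat shock protein list stays far right, at 6.04 and 5.07, and the endodermis marker list moves from 2.29 to 0.14. Endodermis markers could enter the clustering and heat list genes could not, so these shifts are not like for like. Per library, the summed endodermis markers still differed after matching, with log2 ratios of 0.63, 0.75, -1.15 and 0.29.

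Root cap-like clusters gave the same split of the libraries as the root cap markers. In root cap-like clusters 39.3% of barcodes were members in pCORTEX:GFP (533 of 1356; 36.7% to 42.0%) and 26.9% in PET111 (177 of 658; 23.5% to 30.5%), but 3.00% in pWER:GFP (33 of 1099; 2.08% to 4.19%) and 3.64% in pSCR:GFP (46 of 1265; 2.67% to 4.82%). This class held 60.7% and 73.8% of the members of pCORTEX:GFP and PET111, and 9.88% and 16.5% of those of pWER:GFP and pSCR:GFP. Within it, the clusters led by AT1G50060 and CEL5 held 59.7% members in pCORTEX:GFP (327 of 548) and 40.5% in PET111 (113 of 279). CEL5 is a cellulase of separating root cap cells. Root cap-like clusters led by AT1G50060 without CEL5 among their top genes held 1.15% in pWER:GFP (6 of 521) and 2.83% in pSCR:GFP (8 of 283). The root cap-like clusters led by AT1G65570 held 48.0% members in PET111 (48 of 100), 34.2% in pCORTEX:GFP (26 of 76) and 13.7% in pWER:GFP (21 of 153), above the 3.00% of the whole class there. Clusters with the peptide genes RGF2 and RGF3 among their top genes held 47.3% members in pCORTEX:GFP and 44.4% in PET111. Those of pWER:GFP and pSCR:GFP held 3.54% and 1.82%. Not every root cap-like cluster was rich: the cluster of PET111 led by BGLU35 had 0 members of 83 barcodes, which allows up to 3.61%, and its counterpart in pCORTEX:GFP 7.35%. The BGLU35-led clusters of the other libraries ran against the split, with 10.7% in pSCR:GFP (30 of 281) and 8.98% in pWER:GFP (15 of 167). That of pWER:GFP was unnamed, so the root cap-like class did not hold like clusters in each library.

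In endodermis-like clusters members stood at 15.8% for pWER:GFP (58 of 367; 12.2% to 19.9%) and 17.3% for pCORTEX:GFP (49 of 284; 13.0% to 22.2%). The shares were 4.74% for PET111 (13 of 274; 2.55% to 7.98%) and 8.77% for pSCR:GFP (53 of 604; 6.64% to 11.3%). The class did not hold like clusters in each library. A cluster led by AT4G11290 and RCI3 was endodermis-like in pWER:GFP, PET111 and pSCR:GFP, with 15.4%, 1.45% and 9.52% members, but its counterpart in pCORTEX:GFP was unnamed and had 4.37% (17 of 389). The remaining endodermis-like clusters, with CASP genes among their top genes, had 17.3% in pCORTEX:GFP and 16.5% in pWER:GFP, 5.00% and 11.6% in pSCR:GFP and 8.09% in PET111, so no order of the libraries is read from this class. Phloem-like clusters held 12.6% and 8.33% members in pWER:GFP and pSCR:GFP, and 0.513% in pCORTEX:GFP. PET111 had 0 of 122 there, which allows a share of up to 2.46%. In PET111, cortex-like, hair-like, non-hair-like, stele-like and dividing-like clusters also had no member, of 373, 145, 394, 162 and 79 barcodes, which allows up to 0.804%, 2.07%, 0.761%, 1.85% and 3.80%. Clusters with no name held 20.4% to 31.7% of the members, and some were rich in them. An unnamed cluster with the immunity genes FMO1, PBS3 and WRKY46 and with PUB54 among its top genes had 42.4% members in pCORTEX:GFP (137 of 323), and a like one in PET111 had 14.0% (45 of 322). Clusters with FMO1 and PUB54 had 2.88% in pWER:GFP and 5.00% in pSCR:GFP. The highest share of any cluster was in unnamed clusters with AT2G45220 and RGF7 among their top genes in both pWER:GFP (29.9%, 20 of 67) and pSCR:GFP (25.0%, 19 of 76). The classes were rebuilt from markers, genes outside the heat lists that move with the state stayed in the clustering, and depth differed between these clusters, so the shares are descriptions of 1 library each.

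**Figure D4:**
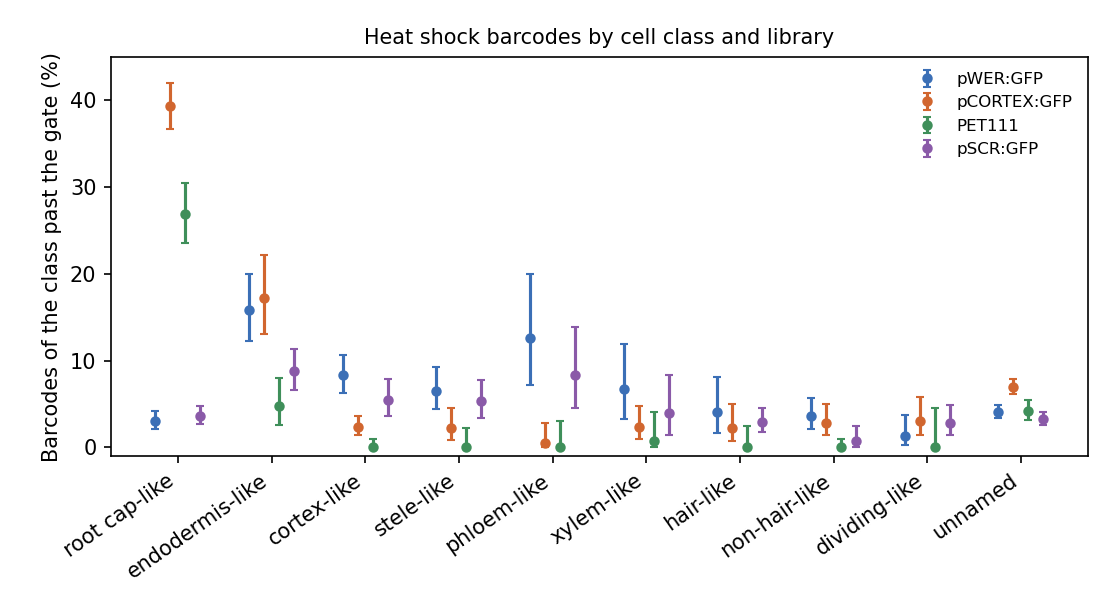
Percent of barcodes past the heat shock gate (y axis) in each cell class rebuilt from clusters (x axis), with 1 coloured point per library and its 95% Clopper-Pearson interval. Root cap-like barcodes separate pCORTEX:GFP (39.3%) and PET111 (26.9%) from pWER:GFP (3.00%) and pSCR:GFP (3.64%), though the class did not hold like clusters in each library.

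The reporters were compared between members and others by value only. YFP of PET111 stood at 297 CPM in members (24 of 240 barcodes, 10.0%, with a UMI) and at 19.5 in the other barcodes (2.96% with a UMI). GFP stood at 24.2 against 45.1 in pWER:GFP, at 3.43 against 9.87 in pCORTEX:GFP and at 6.75 against 3.16 in pSCR:GFP. The PET111 members were mostly of the root cap-like clusters, 2 of which had YFP among their leading genes.

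The libraries held 160953229 to 306361336 UMIs each, and their members 3061545 to 16902527. The median share of organelle UMIs was 1.47% to 3.01% in members and 1.68% to 2.63% in other barcodes. Pairs of libraries shared 27 to 35 barcode sequences. Doublets were not called here; without the top 5% of barcodes by UMIs in each library the shares of members were 5.35%, 12.2%, 7.19% and 4.15%, 33 of the 35 heat list genes were called (0.953% of all genes), and 3 of 9 endodermis markers in place of 8. The gate genes had a UMI in part of the other barcodes too, MBF1C in 10.5% to 25.1%, HSP17.6A in 1.04% to 8.45% and HSP101 in 6.29% to 10.2%. No cell class that should lack heat shock transcripts was available to measure free RNA, whose part in these shares was not tested.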

How the data were processed

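The authors deposited 1 gene by barcode table of raw counts (UMIs) per library, from droplet 3' libraries of root protoplasts per the labels' protocols. The submitters' processing notes name Cell Ranger 7.1.0 and Seurat; the genome build, annotation and strand setting are not given in the sources used here. The gate was applied to each barcode as deposited, and levels are CPM, UMIs per 1000000 UMIs of a barcode or sum. Clusters came from Leiden (leidenalg 0.10.2, resolution 1) on 2000 variable genes, 30 components and 15 neighbours per library, and were named "-like" from at least 3 markers. Sums per library were tested with edgeR 4.0.16 (quasi-likelihood, TMM, filterByExpr, Benjamini-Hochberg adjusted p below 0.05), leaving the gate genes and reporters out. Libraries, not cells, were the replicates, and the p-values measure only the spread between these 4 libraries. DESeq2 1.42.0 and the other alternatives are given in the closing section.

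Genes named beyond the heat lists were the 20 highest and 10 lowest called fold changes with 1 direction in every library and at least 20 CPM. The members and all lists were chosen with earlier results of these data known. Symbols came from RefSeq TAIR10.1, which matched 32548 of 32834 rows, and promoters from the same assembly.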

Additional observations from a re-analysis of the deposited data

Results flagged for a closer look

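Among barcodes outside the comparison, those with at least 2000 UMIs but over 10% of them from organelles also passed the heat shock gate: 2.77% of 831 for pWER:GFP and 5.42% of 886 for pCORTEX:GFP. The shares were 1.84% of 1304 for PET111 and 2.76% of 1485 for pSCR:GFP. In the same order, a count of 0 allows up to 0.361%, 0.339%, 0.230% and 0.202%, for counting error only. These barcodes are shallow, with medians of 3304 to 3528 UMIs.

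The summed cortex markers differed in direction between libraries: the log2 ratio of members over other barcodes was 1.16 for pWER:GFP but -1.34 for pCORTEX:GFP, -5.20 for PET111 and -0.31 for pSCR:GFP. The summed phloem markers did so as well, with 1.66 in pWER:GFP, 1.75 in pSCR:GFP, -2.38 in pCORTEX:GFP and -3.43 in PET111. For the reporters the log2 ratios were 3.92 for PET111 and 1.09 for pSCR:GFP, but -0.90 for pWER:GFP and -1.52 for pCORTEX:GFP. With 1 library per line these differences were not tested.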

How the results depend on the processing

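The shares of members moved with the gate and with depth. With the libraries ordered as above they were 2.01%, 7.71%, 4.86% and 1.45% with a gate of 1000 CPM, 2.48%, 6.38%, 3.44% and 1.86% with all 3 gate genes required, 2.45%, 7.03%, 4.12% and 1.74% after thinning, and 4.30%, 9.79%, 4.19% and 3.41% from 1000 UMIs. From 5000 UMIs they were 6.04% in pWER:GFP, 12.9% in pCORTEX:GFP and 5.04% in pSCR:GFP. pCORTEX:GFP had the highest share in each of these.

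The reported comparison called 597 genes higher and 101 lower. As totals of their own, DESeq2 called 3362 and 2327, no filter on low counts 372 and 53, no library block 94 and 10, matched barcodes 118 and 16, thinned barcodes 65 and 2, and leaving out the top 5% by UMIs 192 and 22. A gate of 1000 CPM gave 243 higher and 112 lower, total UMIs without TMM 432 and 65, and median-of-ratios size factors 759 and 98. With 1 library left out, the higher calls ranged from 0 to 96 and the lower calls from 0 to 3. They were 0 in both directions without pWER:GFP and without pCORTEX:GFP, where edgeR gave 5012 and 4006 genes at an unadjusted p below 0.05. The cause was not tested. The 35 called heat list genes kept a positive fold change in each alternative, 3 of them not tested after thinning. In number called, these were 35 with DESeq2, a gate of 1000 CPM, median-of-ratios factors and matched barcodes, 34 without TMM and without a filter, 33 without the top 5%, 29 of 32 after thinning and 26 without the block. Of the 698 genes called in the reported comparison, 698 were called by DESeq2 too, 238 with a gate of 1000 CPM, 104 without the block, 96 with matched barcodes and 60 after thinning. The 30 named genes beyond the heat lists held less often: 24 were called with a gate of 1000 CPM, 15 after thinning, 15 without the top 5%, 14 with matched barcodes, 10 without PET111, 7 without the block and 0 without each other library. Lower calls among endoplasmic reticulum genes, 8 as reported, were 13 with DESeq2, 7 with median-of-ratios factors, 3 without TMM, 3 with a gate of 1000 CPM and 2 without a filter. They were 0 with matched barcodes, after thinning, without the top 5%, without the block and without each single library. The reported fit compares both sums of the same library through the library block.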
